A study of Mus musculus with 6 samples.

Results

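The circadian clock genes described here are the 10 members Arntl, Clock, Per1, Per2, Per3, Cry1, Cry2, Nr1d1, Nr1d2 and Dbp, taken by name out of 55263 genes with a row in the count table. Transcript rows were summed to genes by their GENCODE vM21 symbol. The cells were bone marrow-derived macrophages, which are grown in culture from mouse marrow progenitors, and no genotype other than wild type is named for them. Cells of the first group were given lipopolysaccharide (LPS, the bacterial membrane component sensed by TLR4) together with HACA, those of the second LPS alone, and those of the control neither, with 2 libraries in each group. The series title concerns a hyaluronic acid nanomedicine. HACA is an abbreviation the labels leave unexplained, and they state no dose, no length of treatment and no hour of collection. The labels also do not say whether the libraries of a group stem from different cultures or mice. Each p-value therefore reflects only how far these libraries spread. Within groups that spread was larger than counting noise alone would give. Its chi-square per degree of freedom was 34.3 in LPS+HACA, 55.5 in LPS and 23.3 in control. Whether it is technical or lies between cultures or mice was not tested.

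The clock is a feedback loop of transcription. ARNTL (also called BMAL1) pairs with CLOCK and activates genes through E-boxes, among them the Per and Cry genes, whose proteins return to repress that pair. In a second loop REV-ERB proteins, encoded by Nr1d1 and Nr1d2, repress Arntl at ROR motifs. DBP, itself under E-box control, carries the rhythm to further genes through D-boxes. Macrophages are known to have such a clock, and REV-ERB proteins are known to repress inflammatory genes in them.

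Library totals ran between 12529874 and 15379496 counts. Of 9 macrophage markers 8 passed the filter on low counts, with Lyz2 at 30358 to 47787 CPM (the share of a library's counts on the usual CPM scale, after TMM factors) and Mertk at 39.1 to 160 CPM, but Adgre1, which encodes the surface marker F4/80, reached only 0.394 to 0.674 CPM, and Itgam, the gene of CD11b, 0.193 to 1.82 CPM. In LPS against control 4 of the 8 were called (edgeR, adjusted p under 0.05), where 30.1% of all genes were. Cd14 rose 10.7-fold and Spi1 3.59-fold. Mertk fell 3.22-fold and Itgam, with 2 counts in each LPS library, 8.72-fold. In LPS+HACA against LPS, Cd14 and Spi1 were called lower and 0 of the 8 higher, where 7.67% and 5.74% of all genes were. The 4 T and NK cell markers summed to 0.0676 CPM at most, and 3 of them were at 0 in every library. The summed fibroblast and stromal markers, of which 3 of 6 passed the filter, stood at 49.7 and 1.35 CPM in the LPS+HACA libraries, 32.3 and 2.22 CPM in the LPS libraries and 47.1 and 1.72 CPM in the control libraries, so replicate 1 was the higher in each group. The summed cycling-cell markers, all 9 of which passed, were higher in replicate 1 as well, at 1423 and 403 CPM in LPS+HACA, 1902 and 1087 CPM in LPS and 726 and 226 CPM in control. Mki67 was the largest of them in every library, at 977 and 314, 1423 and 988, and 497 and 128 CPM in those groups. By log2 fold change in LPS against control, 4 of the 9 stood higher and 5 lower. The only call was Tk1, which was lower (edgeR, adjusted p = 0.0342). It had 12.1 and 15.7 CPM in LPS and 23.9 and 27.3 CPM in control, with replicate 2 the higher. With treatment, the summed dendritic cell markers (4 of 4 passed the filter) differed as well, at 10.02 and 12.0 CPM in LPS+HACA, 24.5 and 26.7 CPM in LPS and 7.84 and 9.33 CPM in control. Most of the LPS sum was Xcr1, at 18.7 and 13.6 CPM there. Xcr1 was the 1 of these 4 markers called, 12.5-fold higher in LPS than in control (edgeR, adjusted p = 0.000796). It was also called 5.48-fold lower in LPS+HACA than in LPS (edgeR, adjusted p = 0.00919). Of all genes, 15.9% were called higher in the first comparison and 7.67% lower in the second. Flt3 stayed at or under 1.13 CPM in every library and Zbtb46 overlapped between groups, at 3.84 to 9.26 CPM. Ccr7 was highest in LPS too. It had 0.243 and 0.473 CPM in LPS+HACA, 1.48 and 3.275 CPM in LPS and 0.188 and 0.728 CPM in control. Ccr7 was not called in LPS against control or in LPS+HACA against LPS (edgeR, adjusted p = 0.0506 and 0.059). Neutrophil markers (3 of 6 passed) summed to 1.21 and 7.98, 4.63 and 15.6, and 1.76 and 8.86 CPM in those groups, and B cell markers (1 of 3 passed) to 1.46 and 1.49, 0.296 and 1.06, and 1.82 and 2.25 CPM. The part of these differences in the clock gene values was not tested. In bulk RNA, fewer cells of a type and less RNA per cell cannot be told apart. Levels of different genes may also depend on how many of their bases are shared with other transcripts, which is not given here for the markers. A low or 0 value therefore does not show that a marker or its cell type was absent.

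All 10 members passed the filter, but the counts did not come from the same kind of transcript in each. Every member transcript whose bases are all shared with other annotated transcripts had 0 counts, so a count needed bases of its own. For Arntl 97.8% of counts came from transcripts annotated as retaining an intron. Its 4 protein-coding transcripts have 61 unshared bases at most and collected between 0 and 5 counts per library. The values of Arntl below therefore describe mainly RNA counted on such transcripts. Per3 was read in the same way, with 80.1% of its counts from retained-intron transcripts, and Dbp and Clock in part, with 44.4% and 34.3%. Per1 had only 310 unshared bases among 5631 exonic bases and 81 counts over all libraries. Cry1, Per2, Nr1d1, Nr1d2 and Cry2 were read mainly from protein-coding transcripts, which held between 85.6% and 99.5% of their counts. Some exonic bases lie also in exons of a neighbour on the opposite strand, namely 539 bases of Dbp in Sphk2, 263 of Nr1d1 in Thra, 295 of Cry2 in D930015M05Rik and 33 of Arntl in Gm45355. Whether the counting used strand is not stated, so reads there may belong to either gene.

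**Figure D1:**
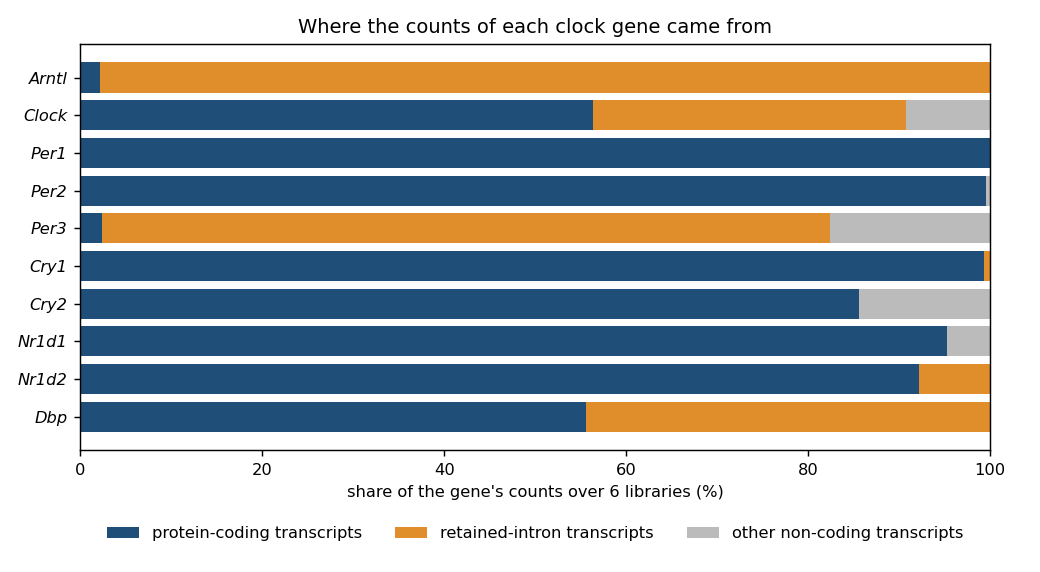
Share of the counts of each clock gene, summed over 6 libraries, that came from protein-coding transcripts (blue), retained-intron transcripts (orange) and other non-coding transcripts (grey), in percent on the horizontal axis. The orange bar takes 97.8% of Arntl and 80.1% of Per3, against 0.678% of Cry1.

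LPS moved 4 of the 10 members. Dbp fell 12.2-fold, Nr1d1 fell 3.41-fold, Per3 fell 2.96-fold and Cry1 rose 5.91-fold relative to control. With HACA added, Dbp was 6.56-fold higher and Cry1 3.88-fold lower than with LPS alone, and no member differed from control at the threshold of an adjusted p of 0.05 (edgeR quasi-likelihood test, Benjamini-Hochberg adjustment over 17113 genes). Among all tested genes 30.1% were called in LPS against control, so 4 of 10 members lies near the background, and groups did not overlap for 7 members beside 66.7% of all genes. With LPS+HACA against LPS the background was 13.4%, beside 2 of 10 members, and groups did not overlap for 5 members beside 57.7% of all genes. With LPS+HACA against control it was 1.15%, beside 0 of 10. The median log2 fold change of the members was -0.03 in LPS against control, where that of all genes was -0.05, and 0.08 in LPS+HACA against LPS, where that of all genes was 0.06.

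**Figure D2:**
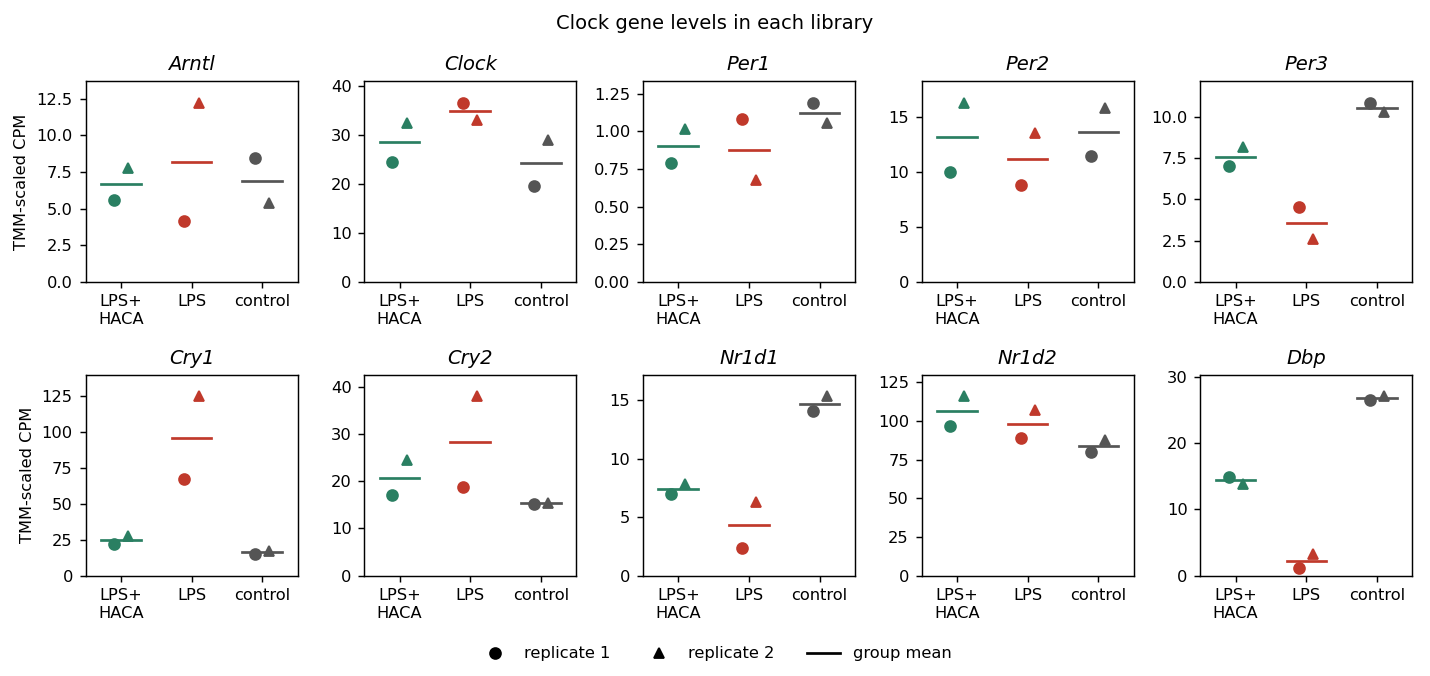
TMM-scaled CPM of each clock gene in every library (circle, replicate 1; triangle, replicate 2), with the group mean as a line, for LPS+HACA, LPS and control from left to right. Dbp lies lowest in LPS, at 1.08 and 3.275 CPM, and Cry1 highest there, at 67.0 and 125 CPM, with both LPS+HACA libraries of each gene between the other groups.

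Dbp encodes a PAR bZIP transcription factor that activates genes through D-boxes. It had 14.9 and 13.9 CPM in the LPS+HACA libraries, 1.08 and 3.275 CPM in the LPS libraries and 26.5 and 27.1 CPM in the control libraries. The 3 groups did not overlap, with LPS lowest and control highest. In counts, the LPS libraries held 11 and 34 reads of Dbp. The log2 fold change was -3.61 ± 0.46 (SE) in LPS against control (adjusted p = 0.00121) and 2.71 ± 0.45 in LPS+HACA against LPS (adjusted p = 0.0107). Against control, LPS+HACA stood at -0.90 ± 0.39 (adjusted p = 0.439), which did not pass although the libraries did not overlap. Both kinds of Dbp transcript moved together. The protein-coding Dbp-201 had 156 and 119 counts in LPS+HACA, 9 and 16 in LPS and 244 and 194 in control. The retained-intron Dbp-205 had 89 and 86, 2 and 18, and 179 and 215 counts in those groups. Fitted alone over all genes, protein-coding transcripts of Dbp gave -3.63 ± 0.38 and retained-intron transcripts -3.56 ± 0.52 in LPS against control (adjusted p = 0.00117 and 0.000458).

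The 4 members called in LPS against control are shown here by their RefSeq promoters (GRCm38.p6), as the stretches of DNA that lie next to the starts of the genes with the largest changes. Each runs 5′ to 3′ on the strand of the gene, over 250 bases before and 50 bases from the annotated start. The windows are Dbp on chr7:45704997-45705296 (plus strand), Nr1d1 on chr11:98775328-98775627 (minus), Per3 on chr4:151044616-151044915 (minus) and Cry1 on chr10:85185005-85185304 (minus). Capitals mark matches, on either strand, to the E-box CACGTG, the related E'-box CACGTT, the D-box TTANGTAA or AGGTCA, the core of the ROR motif. The bases around that core were not checked.
Dbp: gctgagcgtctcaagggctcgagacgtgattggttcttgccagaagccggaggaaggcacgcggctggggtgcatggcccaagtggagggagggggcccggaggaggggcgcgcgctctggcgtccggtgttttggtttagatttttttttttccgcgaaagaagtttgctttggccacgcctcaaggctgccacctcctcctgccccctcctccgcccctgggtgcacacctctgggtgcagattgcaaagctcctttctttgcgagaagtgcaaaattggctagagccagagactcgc
Nr1d1: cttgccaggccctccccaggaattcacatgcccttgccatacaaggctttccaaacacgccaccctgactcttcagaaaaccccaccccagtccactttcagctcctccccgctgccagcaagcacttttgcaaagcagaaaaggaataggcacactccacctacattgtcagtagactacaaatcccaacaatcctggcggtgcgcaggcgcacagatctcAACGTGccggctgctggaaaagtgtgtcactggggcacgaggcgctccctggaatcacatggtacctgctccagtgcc
Per3: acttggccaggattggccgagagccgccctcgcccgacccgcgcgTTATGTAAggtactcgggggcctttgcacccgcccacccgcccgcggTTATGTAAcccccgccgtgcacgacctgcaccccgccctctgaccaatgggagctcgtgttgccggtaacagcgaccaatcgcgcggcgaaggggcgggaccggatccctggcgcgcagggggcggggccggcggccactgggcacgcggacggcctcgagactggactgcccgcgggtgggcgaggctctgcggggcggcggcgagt
Cry1: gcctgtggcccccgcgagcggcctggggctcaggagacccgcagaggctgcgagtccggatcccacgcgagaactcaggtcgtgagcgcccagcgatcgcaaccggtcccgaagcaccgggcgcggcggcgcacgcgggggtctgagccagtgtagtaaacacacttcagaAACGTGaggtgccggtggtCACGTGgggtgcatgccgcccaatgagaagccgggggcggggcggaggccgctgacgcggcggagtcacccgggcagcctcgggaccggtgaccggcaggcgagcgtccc
In the Cry1 window an E'-box begins 79 bases and an E-box 60 bases before the start. Per3 holds a pair of D-boxes, which begin 205 and 158 bases before its start, and Nr1d1 an E'-box that begins 28 bases before its start. In the Dbp window none of the 4 motifs was found in these letters. Of 32817 RefSeq promoter windows of this length, 7.15% hold the E-box, 4.69% the E'-box, 2.32% the D-box and 16.3% the core AGGTCA. At least 2 D-boxes occur in 0.0823% of them. The matches did not overlap each other, and they describe letters only, since no binding was measured.

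**Figure D3:**
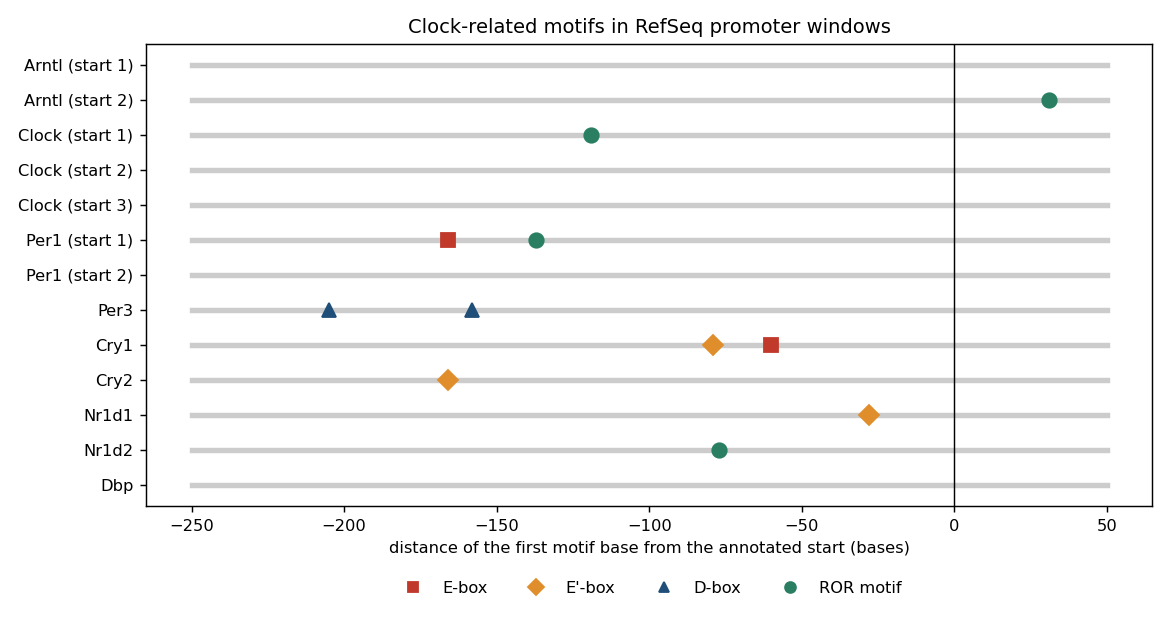
Motif matches in the 13 RefSeq promoter windows of 9 clock genes, by the distance of the first motif base from the annotated start in bases (grey bar, the window from 250 before to 50 after; vertical line, the start). The ROR motif was searched by its core AGGTCA only. Per3 carries its D-boxes at 205 and 158 bases before the start, and Cry1 its E'-box and E-box at 79 and 60 bases before.

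In the repressor arm, Cry1 and Cry2 encode cryptochromes, which with PER proteins block the CLOCK-ARNTL pair. Cry1 had 22.2 and 27.2 CPM in the LPS+HACA libraries, 67.0 and 125 CPM in the LPS libraries and 15.1 and 17.3 CPM in the control libraries. No groups overlapped, and LPS replicate 2 was the highest library. Cry1 rose in LPS by 2.56 ± 0.33 on the log2 scale (adjusted p = 0.00137) and fell by 1.96 (± 0.33) in LPS+HACA against LPS (adjusted p = 0.0111). The second call was lost without LPS+HACA replicate 1, where the log2 fold change was -1.79. LPS+HACA stood 0.61 ± 0.32 above control, which did not pass (adjusted p = 0.548).

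Cry2 had 17.1 and 24.5 CPM in LPS+HACA, 18.8 and 38.0 CPM in LPS and 15.2 and 15.5 CPM in control. Its LPS libraries lay above both control libraries but overlapped with LPS+HACA. The difference of LPS from control, 0.89 ± 0.36, did not pass (adjusted p = 0.101), but it passed without LPS replicate 1 (adjusted p = 0.00857) and without a filter on low counts (adjusted p = 0.0409). LPS+HACA against LPS gave -0.45 ± 0.36 (adjusted p = 0.433). Whether Cry1 and Cry2 differed in their change was not tested.

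The Period genes encode the partners of the cryptochromes. Per3, counted mainly on retained-intron transcripts, had 6.98 and 8.18 CPM in LPS+HACA, 4.53 and 2.60 CPM in LPS and 10.9 and 10.3 CPM in control. Its groups did not overlap, in the same order as for Dbp. Per3 fell in LPS by 1.56 (± 0.34) on the log2 scale (edgeR, adjusted p = 0.0118). The call was lost without control replicate 1 or 2, where the log2 fold change was -1.54 or -1.60. LPS+HACA against LPS gave 1.09 ± 0.34, which did not pass (adjusted p = 0.0738). It passed without LPS replicate 1 (1.54, adjusted p = 0.0205), without a filter on low counts (adjusted p = 0.0373) and with library totals (1.70, adjusted p = 0.0224). Against control, LPS+HACA stood at -0.48 ± 0.33 (adjusted p = 0.691).

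Per2 had 10.02 and 16.3 CPM in LPS+HACA, 8.77 and 13.5 CPM in LPS and 11.4 and 15.8 CPM in control. The groups overlapped, with replicate 2 the higher in each, and LPS against control gave -0.29 ± 0.35 (adjusted p = 0.577). Per1 had 13 and 15 counts in LPS+HACA, 11 and 7 in LPS and 19 and 16 in control. At these counts LPS against control gave -0.35 ± 0.56 (adjusted p = 0.672), with the widest SE among the members.

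Nr1d1 and Nr1d2 encode the REV-ERB repressors of the second loop. Nr1d1 had 6.98 and 7.84 CPM in LPS+HACA, 2.36 and 6.26 CPM in LPS and 14.1 and 15.3 CPM in control. No groups overlapped, although LPS replicate 2 came close to LPS+HACA. Nr1d1 fell in LPS by 1.77 (± 0.43) on the log2 scale (edgeR, adjusted p = 0.0176). The call was lost without control replicate 1 or 2, where the log2 fold change was -1.85 or -1.70. LPS+HACA stood 0.78 ± 0.43 above LPS (adjusted p = 0.258) and at -0.99 ± 0.41 against control (adjusted p = 0.399), and neither passed. The difference from LPS was 1.64 without LPS replicate 2 (adjusted p = 0.0222) and 0.24 without LPS replicate 1 (adjusted p = 0.604), and with library totals it was 1.47 (adjusted p = 0.034).

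Nr1d2 was read from 905 to 1716 counts per library. It had 96.9 and 116 CPM in LPS+HACA, 89.2 and 107 CPM in LPS and 79.7 and 87.8 CPM in control. LPS against control gave 0.23 ± 0.22 (adjusted p = 0.466; -0.43 with library totals) and LPS+HACA against LPS 0.12 ± 0.22 (adjusted p = 0.75). With library totals the second difference was 0.77 and passed (adjusted p = 0.0386). Whether the changes of the 2 REV-ERB genes differed was not tested.

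**Figure D4:**
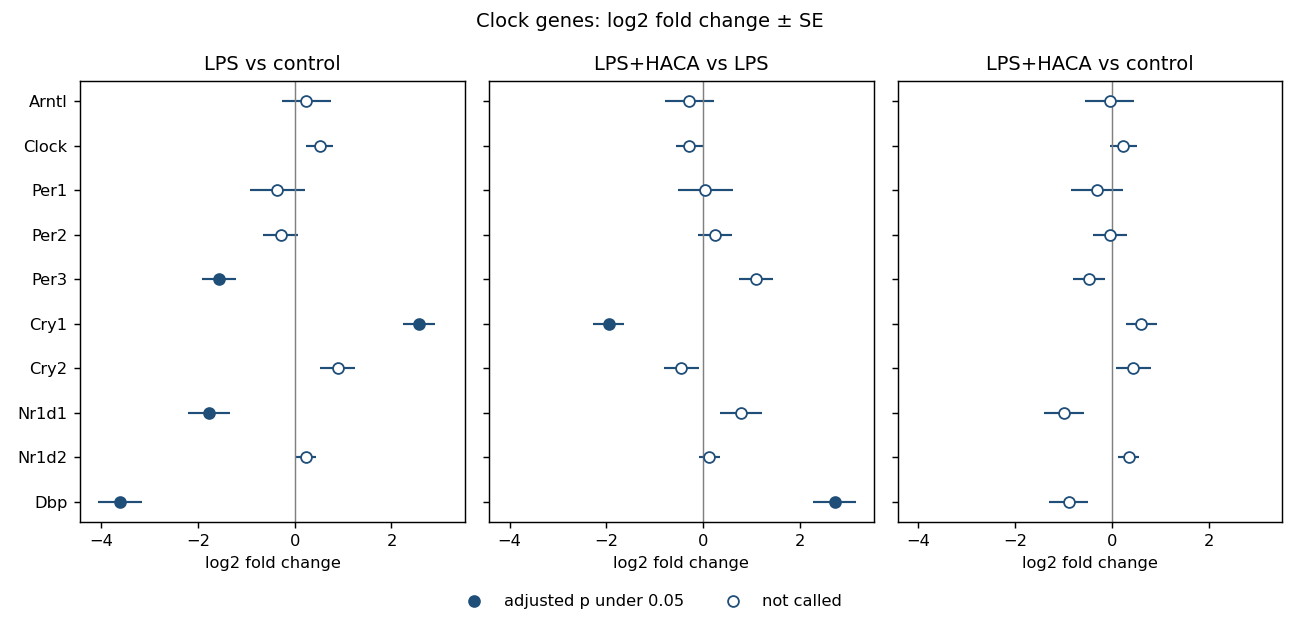
Log2 fold change of each clock gene (point) with its SE (bar) in 3 panels from left to right, for LPS against control, for LPS+HACA against LPS, then for LPS+HACA against control; filled points passed an adjusted p of 0.05. Cry1 lies at 2.56 and Dbp at -3.61 in the first panel, at -1.96 and 2.71 in the second, and no point is filled in the third.

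The activator arm gave no call. Clock encodes the partner of ARNTL and had 24.4 and 32.5 CPM in LPS+HACA, 36.5 and 32.9 CPM in LPS and 19.6 and 28.9 CPM in control. The LPS libraries lay above those of both other groups, by 0.52 ± 0.28 over control (adjusted p = 0.195) on the log2 scale, a sign that turned (-0.12) with library totals in place of TMM. LPS+HACA against LPS gave -0.29 ± 0.28 (adjusted p = 0.518). Arntl, counted on retained-intron transcripts, had 5.59 and 7.78 CPM in LPS+HACA, 4.14 and 12.2 CPM in LPS and 8.47 and 5.36 CPM in control. The LPS libraries of Arntl enclosed those of both other groups. LPS against control gave 0.24 ± 0.51 (adjusted p = 0.754; -0.46 with library totals) and LPS+HACA against LPS -0.29 ± 0.51 (adjusted p = 0.731), and both differences were smaller than the spread between the LPS libraries.

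In LPS+HACA against control 0 of 10 members was called by edgeR or by limma-voom, and 0 by DESeq2, which gave no adjusted p for Per1. An unadjusted p under 0.05 was found for 1 member, Nr1d1. Groups did not overlap for 7 of 10 members, while 46.5% of all genes showed no overlap. Dbp, Nr1d1, Per3 and Per1 lay below control in both LPS+HACA libraries, and Cry1, Cry2 and Nr1d2 above it. Each pair of these comparisons shares libraries, so the values of a gene in them are not independent.

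Other genes of the clock network were examined as a list of 24, of which 19 passed the filter. In LPS against control 5 were higher and 2 lower, where the background was 15.9% higher and 14.3% lower. In LPS+HACA against LPS 2 were higher and 3 lower, where the background was 5.74% and 7.67%, while DESeq2 called 3 higher and 5 lower and limma-voom 1 and 3. Their median log2 fold changes were 0.34 and -0.34 (-0.05 and 0.06 over all genes). In LPS+HACA against control 0 of the 19 was called by edgeR or by limma-voom, and 0 of the 17 to which DESeq2 gave an adjusted p. In edgeR 3 of them had an unadjusted p under 0.05. Arntl2, Hlf and Fbxl21 were among those that did not pass the filter.

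The D-box factors moved apart. Tef, a PAR bZIP activator like Dbp, had 29.6 and 26.2 CPM in LPS+HACA, 13.6 and 9.83 CPM in LPS and 47.6 and 38.8 CPM in control. Nfil3, which encodes a repressor that competes with PAR bZIP factors for D-boxes, had 21.9 and 32.0 CPM in LPS+HACA, 73.9 and 177 CPM in LPS and 23.3 and 26.6 CPM in control. Tef was lowest in LPS and Nfil3 highest there, without overlap with the other groups. Tef fell in LPS by 1.88 (± 0.27) and Nfil3 rose by 2.33 ± 0.42 on the log2 scale (adjusted p = 0.00197 and 0.00504). In LPS+HACA against LPS, Tef rose by 1.25 ± 0.26 and Nfil3 fell by 2.22 (± 0.41), with adjusted p = 0.0223 and 0.0156. Leaving out either control or either LPS+HACA library ended the call of Tef in the second comparison, with log2 fold changes of 1.19 to 1.33. For Nfil3 the call was lost without control replicate 1 in the first (log2 fold change 2.22) and without LPS+HACA replicate 1 in the second (-1.94).

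All 3 output genes were called in LPS against control, where 30.1% of all genes were, and in LPS+HACA against LPS, where 13.4% were, though the second call of Usp2 did not hold when any library was left out. Nampt, the rate-limiting enzyme of NAD salvage, had 343 and 485 CPM in LPS+HACA, 1225 and 1573 CPM in LPS and 253 and 273 CPM in control. It rose in LPS by 2.41 ± 0.25 (adjusted p = 0.000565) and fell by 1.76 (± 0.24) with HACA added (adjusted p = 0.00682, and 0.0553 without LPS+HACA replicate 1). Noct, the gene of nocturnin, had 9.60 and 6.22 CPM in LPS+HACA, 25.0 and 36.5 CPM in LPS and 6.52 and 8.20 CPM in control. It rose by 2.06 ± 0.33 in LPS (adjusted p = 0.0033) and fell by 1.96 (± 0.33) in LPS+HACA against LPS (adjusted p = 0.0113, and 0.0715 without LPS+HACA replicate 2). Usp2, which encodes a deubiquitinase, had 49 and 34 counts in LPS+HACA, 7 and 10 in LPS and 72 and 97 in control. Usp2 fell by 2.71 (± 0.44) in LPS (adjusted p = 0.00325). Its rise of 1.66 ± 0.44 with HACA (adjusted p = 0.0445) was lost in each of the 6 fits that leave out a library (adjusted p = 0.0642 to 0.20) and with limma-voom (adjusted p = 0.101). In levels, Nampt and Noct were therefore highest and Usp2 lowest in the LPS libraries.

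Of the partners and repressors, Bhlhe40, whose product represses at E-boxes, rose in LPS. It had 8.93 and 9.20 CPM in LPS+HACA, 13.4 and 27.9 CPM in LPS and 8.85 and 7.74 CPM in control, a rise of 1.32 ± 0.36 in LPS (adjusted p = 0.0285). The call was lost without control replicate 1 or 2 (log2 fold change 1.40 or 1.23) and without LPS replicate 2 (0.69). It was lost too when only library totals were used (0.63, edgeR, adjusted p = 0.155). Npas2, a paralog of Clock, stood at -0.65 ± 0.31 in LPS against control (adjusted p = 0.149). Gsk3b, a kinase that phosphorylates clock proteins, rose in LPS by 0.72 ± 0.20 (edgeR, adjusted p = 0.0283). Its call was lost in 5 of the 6 fits without a library (log2 fold change 0.58 to 0.73) and with library totals (0.07, edgeR, adjusted p = 0.804). Rora, an activator at ROR motifs, stood at 0.34 ± 0.23, Csnk1e, the casein kinase of PER proteins, at -0.55 ± 0.26, and Ncor1, the corepressor of REV-ERB proteins, at 0.38 ± 0.23 (adjusted p = 0.298, 0.15 and 0.249), and with library totals Rora and Ncor1 turned to -0.30 and -0.25. Under those totals Npas2 and Csnk1e passed, at -1.28 and -1.22 (edgeR, adjusted p = 0.0185 and 0.0078), and Csnk1e passed also without LPS replicate 2, at -0.91. In LPS+HACA against LPS, Npas2 stood at 1.01 ± 0.31, Bhlhe40 at -1.19 ± 0.36 and Gsk3b at -0.69 ± 0.20. None of them passed in edgeR (adjusted p = 0.0678, 0.0672 and 0.0568), but DESeq2 called Bhlhe40 and Gsk3b lower (adjusted p = 0.0277 and 0.0144). Rora, Csnk1e and Ncor1 stood at -0.02, -0.01 and -0.21 there and did not pass in edgeR.

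**Figure D5:**
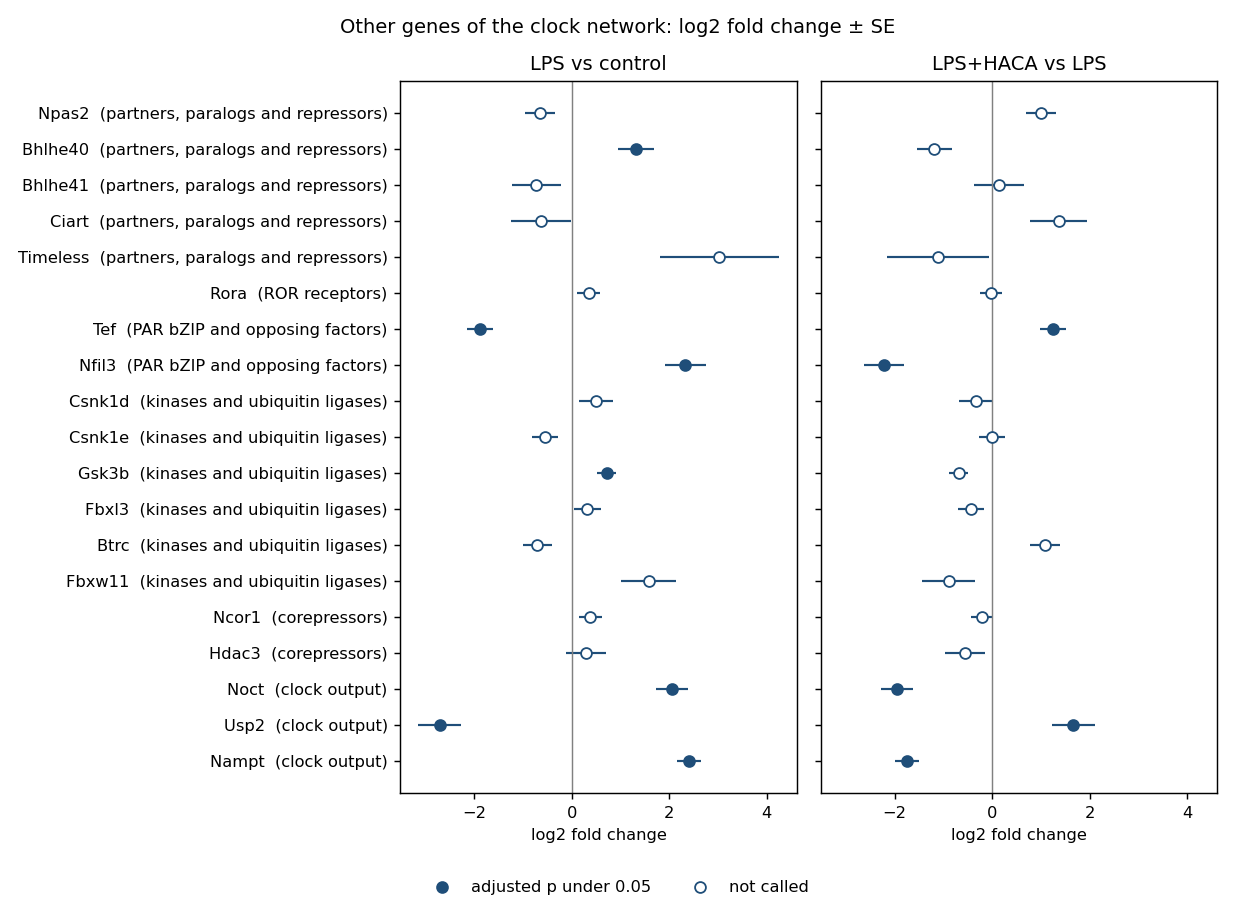
Log2 fold change (point) with its SE (bar) of the 19 tested genes of the wider clock list, with their roles, in LPS against control and LPS+HACA against LPS; filled points passed an adjusted p of 0.05. Nampt, Nfil3 and Noct lie at 2.41, 2.33 and 2.06 in the first panel and Usp2 and Tef at -2.71 and -1.88, each with the opposite sign in the second. Both panels use the same LPS libraries, so the signs in them are not independent.

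The profile of Dbp over the 6 libraries was closest to those of Aplp2 (Pearson r of log2(CPM + 1) 0.998), Gm37531 (0.997) and Pld4 (0.997) among 8699 other genes with a mean of at least 5 CPM. Pld4, for example, had 40.3 and 32.3 CPM in LPS+HACA, 3.94 and 7.90 CPM in LPS and 67.2 and 77.4 CPM in control. For Arntl the closest were Tbcc, Cmip and Borcs6 (0.982, 0.981 and 0.98). All genes were measured in the same 6 libraries, and those named were picked as the closest of 8699. The coefficients therefore describe likeness only and were not tested.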

How the data were processed

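Expression was measured by sequencing poly-A RNA from TruSeq libraries, per the labels' protocols. Genes annotated as misc_RNA nevertheless held 24.3% to 29.2% of the counts of a library. With these genes left out, 4 members were called in LPS against control and 2 in LPS+HACA against LPS. Per the file headers, the deposited tables hold raw counts and FPKM for each transcript. The FPKM values were not used for tests. Among the tools in the submitters' processing notes are STAR 2.5.4b, DESeq2 1.26.0, edgeR 3.28.1, limma, CASAVA and Trim Galore, beside the builds GRCm38 and GRCh38. The counting program is not given in the sources used here.

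Of 142647 transcripts, 141524 matched GENCODE vM21 (GRCm38) and were summed to 55263 genes. Left out were 1123 transcripts without a match, with 0.115% of the counts of any library or less. Genes were filtered with filterByExpr, scaled with TMM factors and fitted with edgeR 4.0.16 (robust quasi-likelihood, all 6 libraries, group as the only term, 3 residual degrees of freedom) in R 4.3.3. A gene was called at an adjusted p under 0.05. The SE was taken from the F statistic (size of the log2 fold change over its square root). Values are given per library or as a log2 fold change ± SE. Depth limits the precision of low genes, and unequal unshared length means that levels of different genes cannot be compared. The procedure was also run on simulated counts, drawn independently for each library and without any difference tied to the replicate number. Alternatives used DESeq2 1.42.0, limma 3.58.1 (limma-voom), other scaling, filters, samples and transcripts.

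Promoter sequences came from RefSeq and matched 9 of 10 members; Per2 had no entry. Named genes were the 10 members, called genes of the wider list with 1 uncalled gene of each role that had one (picked after their values were seen), and the 3 genes most like Dbp, the called member with the largest change, and Arntl. The members and lists were chosen with earlier results of these data known.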

Additional observations from a re-analysis of the deposited data

How the results depend on the processing

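Among 781 repeats of single-gene values under other settings, 696 kept their direction and their side of the threshold, 40 lost a call, 20 gained one and 25 changed sign. The calls of Dbp and Cry1 in LPS against control and of Dbp in LPS+HACA against LPS held in every alternative that gave a value. With library totals in place of TMM, the median gene stood at -0.69 (log2) in LPS against control, against -0.05 with TMM, and at 0.70 in LPS+HACA against LPS, against 0.06. Calls were then 1417 higher and 5111 lower in place of 2715 and 2442, and 3501 and 522 (4023 in all) in place of 983 and 1312, and 5 members in place of 2 were called in LPS+HACA against LPS. Under those totals Arntl stood at -0.46, Clock at -0.12, Nr1d2 at -0.43, Rora at -0.30 and Ncor1 at -0.25 in LPS against control, and Arntl at 0.40, Clock at 0.34 and Cry2 at 0.23 in LPS+HACA against LPS, all with the opposite sign of the main values. Changes in the text are relative to the median gene, and the cause of the shift was not tested.

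Leaving out a library gave 2 to 5 called members in LPS against control and 1 to 3 in LPS+HACA against LPS, and over all genes 2149 to 5841, 368 to 3410 and, in LPS+HACA against control, 0 to 606 calls. Single-gene signs turned for values that the main test did not call: Arntl ran from -0.74 to 0.83 in LPS against control, -0.88 to 0.69 in LPS+HACA against LPS and -0.34 to 0.31 in LPS+HACA against control. In LPS+HACA against LPS, Per1 ran from -0.27 to 0.41, Per2 from -0.16 to 0.58, Cry2 from -0.87 to 0.14 and Nr1d2 from -0.023 to 0.27. In LPS+HACA against control, Clock ran from -0.034 to 0.54 and Per2 from -0.44 to 0.28. The lone library left in a group is assumed to vary like the other groups. In LPS against control and in LPS+HACA against LPS, most of these fits also called fewer of all genes. A lost call there does not by itself show that a gene's value moved.

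Without a filter on low counts 3600 genes were called in LPS+HACA against LPS and 911 in LPS+HACA against control. DESeq2 called 666 and limma-voom 119 in the last comparison, against 197 in edgeR. Fitting only the 2 groups compared gave 761 and 483 calls in those comparisons. With protein-coding transcripts only, chosen after seeing the data, 2688, 1045 and 67 genes were called in the 3 comparisons. With retained-intron transcripts only, also chosen then, 1856 and 871 genes were called in the first 2 comparisons, with 2 and 1 of 5 tested members, and Nr1d2 stood at -0.15 in LPS against control and -0.085 in LPS+HACA against control. Fewer genes enter those fits. A replicate block gave 4311 and 935 calls in LPS+HACA against LPS and against control, and 5 members in LPS against control, the added one being Cry2 (adjusted p = 0.0299), and 3 members in LPS+HACA against LPS, the added one being Per3 (adjusted p = 0.0322). The differences of replicate 1 from replicate 2 correlated between groups at r = 0.581, 0.597 and 0.352 across genes. The labels do not say what a number marks, and with 2 numbers a group these correlations do not settle whether they pair the libraries.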

Other observations

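As for Dbp, both kinds of Tef transcript were lower in LPS than in control. Retained-intron transcripts of Tef gave a log2 fold change of -1.93 ± 0.30 in LPS against control and 1.29 ± 0.30 in LPS+HACA against LPS (edgeR, adjusted p = 0.000639 and 0.0139), where its protein-coding transcripts gave -1.58 ± 0.33 and 1.03 ± 0.33 (adjusted p = 0.0135 and 0.0892). Over all protein-coding genes, retained-intron transcripts held 8.14% and 9.55% of the counts in LPS+HACA, 6.84% and 6.999% in LPS and 7.78% and 8.83% in control, so the LPS libraries were the lowest.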
